A study of Mus musculus with 280 samples.

Results

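The mitochondrial ribosomal protein genes are the nuclear genes whose symbols begin with Mrpl (large subunit) or Mrps (small subunit) followed by a digit. They were taken by that spelling alone, with no measured value used, and numbered 77 of the 11076 genes in the table, 48 with Mrpl and 29 with Mrps symbols. Each value is the level of a gene in 1 whole mouse embryo in TPM, which is scaled for transcript length and is a share of that embryo's measured RNA. A higher share does not by itself show more of a transcript per embryo, because it also depends on the other RNAs. Amounts of RNA per embryo or per cell, and cell numbers, cannot be read from these values.

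All 280 embryos were of the inbred FVB strain and came from in vitro fertilization with oocytes of control-diet females. They were cultured in KSOM, a medium for preimplantation embryos. The groups differ in the diet of the sperm donor, Control or Low Protein, and in stage. With control sires there were 41 embryos at the 2-cell stage, 42 at the 4-cell stage, 2 at the 8-cell stage, 38 morulae, 14 blastocysts and 2 late blastocysts. With low-protein sires there were 39, 40, 2, 35, 22 and 3 at the same stages. Sperm came from 20 sires, 10 per diet, so embryos of the same sire are not independent and the p-values measure the spread between embryos. Oocytes came from 20 donors, and embryos of the same donor are not independent either. Blastocysts came from 2 control and 3 low-protein sires, and the 8-cell and late blastocyst embryos from 1 sire per diet, so that in the 8-cell and late blastocyst embryos sire and diet cannot be told apart. The embryos were processed on 8 plates, as numbered in the table.

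Between 3626 and 10204 genes per embryo reached 1 TPM, with 1 embryo under 5000, and the median was 9327 at the 2-cell stage and 8475 in blastocysts. No sequencing depth could be read from the TPM values. The stage labels were checked against marker lists. The summed level of 5 genes typical of the 2-cell stage had a median of 2544 TPM in 2-cell embryos and 12.95 TPM in 4-cell embryos. Trophectoderm genes, which mark the outer layer of the blastocyst, summed to a median of 680.2 TPM in morulae and 12050 TPM in blastocysts. The 5 blastocysts on plate 6, all of low-protein sires, summed to only 463.1 to 1568 TPM for these 5 genes, within the range of the morulae. Of 11 cumulus cell markers 2 were in the table and of 4 sperm markers 1, Prm2, which did not exceed 31.34 TPM in any embryo. The cumulus markers in the table were Gja1, a gap junction gene, and Cyp19a1, the aromatase gene, and their summed level had a median of 14.33 TPM in 2-cell embryos, 415.9 TPM in 4-cell embryos and 559.4 TPM in morulae, with a highest value of 3021 TPM. From the 2-cell to the 4-cell stage Gja1 rose by 5.34 and Cyp19a1 fell by 2.33 on the log2 scale with control sires. Their part in the changes of the ribosomal genes was not tested.

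Mitochondria keep their own ribosome, which makes the few respiratory chain subunits encoded by mitochondrial DNA. Its RNAs come from mitochondrial DNA, but all of its proteins are encoded in the nucleus, made on cytosolic ribosomes and imported. Some have bacterial counterparts and others are found in mitochondria alone. In mouse, the embryo inherits its mitochondria from the oocyte and starts major transcription of its own genome at the 2-cell stage.

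The 77 genes together rose between the 2-cell and the 4-cell stage. Their summed level was 3590 ± 1090 TPM (SD, n = 41) in 2-cell embryos of control sires and 9921 ± 2003 TPM (SD, n = 42) at the 4-cell stage. With low-protein sires it was 3446 ± 964.5 TPM (SD, n = 39) and 10030 ± 2329 TPM (SD, n = 40). The highest 2-cell embryos, at 7807 and 7082 TPM, lay above the lowest 4-cell embryos, at 6161 and 5973 TPM, so the stages overlapped at their edges. Morulae reached 11290 ± 3485 TPM (SD, n = 38) with control and 11200 ± 3202 TPM (SD, n = 35) with low-protein sires. Blastocysts were lower, at 8061 ± 1029 TPM (SD, n = 14) and 8467 ± 1079 TPM (SD, n = 22).

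**Figure D1:**
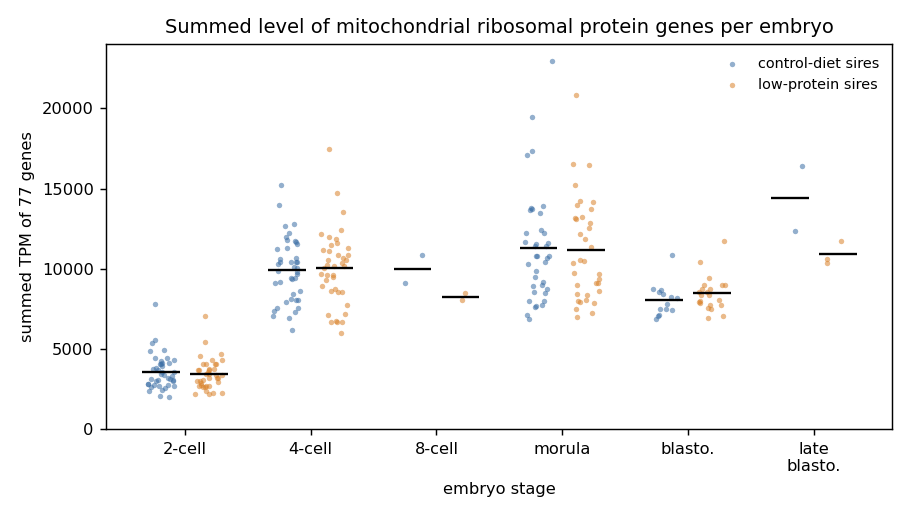
Summed level of the 77 genes in each embryo (TPM, linear axis) by stage and sire diet; each point is 1 embryo and the bar is the group mean. The 2-cell embryos lie between 2030 and 7807 TPM and the 4-cell embryos between 5973 and 17480 TPM, and both sire diets cover much the same range at the 2-cell, 4-cell, morula and blastocyst stages.

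Of the 77 genes, 59 rose and 2 fell from the 2-cell to the 4-cell stage with control sires, and 16 passed neither limit. A gene was called at an adjusted p under 0.05 (limma on log2(TPM + 1), with plate as covariate and Benjamini-Hochberg adjustment over all genes) and a log2 change of at least 1. Of all 11054 genes tested, 34.4% rose and 36.9% fell. The median log2 change was 2.37 over the 77 genes and -0.01 over all genes. With low-protein sires 61 rose and 2 fell (34.5% and 37.6% of all genes), with medians of 2.31 and -0.05. These are other embryos than those of the control fit, though they shared the culture, the plates and many of the oocyte donors. Of the 20 donors, 17 gave 2-cell embryos of control sires and 16 gave 2-cell embryos of low-protein sires. The 60 genes called in both fits moved the same way, which is 98.4% of the control calls and 95.2% of the low-protein calls. Mrpl9 passed with control sires alone, and Mrpl40, Mrpl13 and Mrpl1 with low-protein sires alone, and the difference of this step between diets was not tested by itself. Within each of the 6 plates that hold both stages the median change of the 77 genes was positive, from 1.75 to 2.84.

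Of the 59 rises, 43 were of at least 2 log2 units, 29 of at least 3 and 7 of at least 5. The genes nearest the limit were Mrps30 (1.13) and Mrpl55 (1.16) inside it, and Mrpl40 (0.999) and Mrpl1 (0.954) outside it.

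The largest fitted rise was in Mrpl52, a large-subunit protein with no bacterial counterpart. It was listed at 0 in 73 of the 80 2-cell embryos, where its highest value was 16.06 TPM. At the 4-cell stage the lowest, median and highest values were 19.81, 92.74 and 250.3 TPM with control sires. With low-protein sires they were 23.48, 79.34 and 253.5 TPM. Every 4-cell embryo was thus above every 2-cell embryo. Mrpl52 and Mrpl19 reached 1 TPM in only 7 and 12 of the 80 2-cell embryos and so passed the filter on low values through later stages, which fixes the direction of their change. The fitted log2 change of Mrpl52 in control embryos was 6.18 with a pseudocount of 1 and 9.21 with a pseudocount of 0.1, so it is no measure of the true fold.

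Mrps10, a small-subunit protein with a bacterial counterpart, went from a median of 2.84 TPM (lowest 0, highest 24.72) to 225.0 TPM (lowest 116.6, highest 502.1) with control sires. With low-protein sires its median went from 3.27 to 225.2 TPM. No 2-cell embryo reached the lowest 4-cell embryo in either diet, and the fitted change was 6.13 with an SE of 0.203 (limma adjusted p = 3.46e-60). Mrps34, found in the mitochondrial small subunit alone, followed with a change of 5.99 ± 0.193 (SE, limma adjusted p = 1.83e-61). It was listed at 0 in 59 of the 80 2-cell embryos and had a median of 105.8 TPM in control 4-cell embryos. Mrpl33 (5.93), Mrps18c (5.48) and Mrpl27 (5.43) completed the 6 largest rises, with limma adjusted p of at most 6.87e-38. Mrpl27, a protein of the central protuberance with a bacterial counterpart, rose from a median of 2.13 to 125.4 TPM. Mrps34, Mrpl33 and Mrpl27 each have an exon that overlaps another gene in the annotation.

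Complete separation was uncommon. In 13 of the 77 genes every 4-cell embryo of control sires lay above every 2-cell embryo, against 3.42% of all genes. With low-protein sires it was also 13, against 2.58%. Mrpl15, Mrpl22, Mrpl39, Mrpl52, Mrpl54, Mrps10, Mrps18c and Mrps24 were in both sets.

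The clearest exception was Mrpl48, a mitochondrial large-subunit protein of the central protuberance. It was the highest of the 77 genes at the 2-cell stage, with a lowest, median and highest value of 96.38, 451.6 and 937.6 TPM with control sires. With low-protein sires these were 60.86, 439.9 and 1181 TPM. At the 4-cell stage the medians were 68.5 and 65.89 TPM, and the gene stayed near that level in morulae (68.46 and 64.06 TPM) and below it in blastocysts (44.55 and 44.77 TPM). The control 4-cell embryos went up to 112.5 TPM and 40 of 42 lay below every 2-cell embryo, so these groups overlapped only at their edges. With low-protein sires the overlap was wider. There 18 of 40 4-cell embryos lay below every 2-cell embryo, and the highest was at 217.4 TPM. The fitted change was -2.66 with an SE of 0.163 (limma adjusted p = 7.77e-33), and -2.75 with low-protein sires. An exon of Mrpl48 overlaps Rab6a in the annotation, and the strand used in quantification is not given in the sources used here.

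Mrps25, a small-subunit protein of mitochondria, was the other gene that fell, from a median of 18.23 to 8.26 TPM with control sires (log2 change -1.01, SE 0.147, limma adjusted p = 3.47e-10). Its 2-cell range of 5.52 to 40.27 TPM overlapped the 4-cell range of 2.17 to 20.18 TPM. The value lies at the fold limit, and with quantile normalization of the embryos it was -0.73 and not called. It also has an exon overlapping another gene, Nr2c2. From the 4-cell stage to the blastocyst Mrps25 was the lowest of the 77 genes on average.

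**Figure D2:**
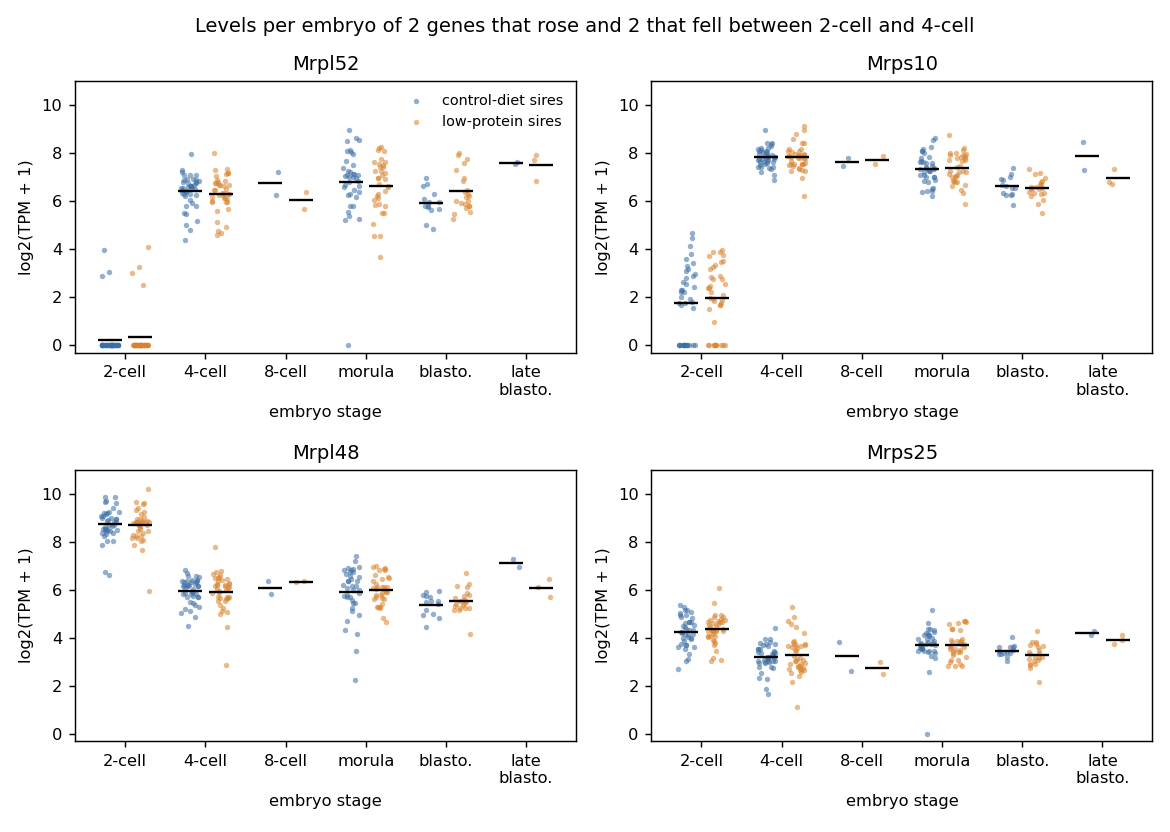
Levels in each embryo of Mrpl52 and Mrps10, which rose, and Mrpl48 and Mrps25, which fell, as log2(TPM + 1) by stage and sire diet, with points for embryos and bars for group means. Mrpl52 sits at 0 in 73 of 80 2-cell embryos and near 6 in 4-cell embryos, while Mrpl48 drops by 2.66 on the log2 scale.

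The promoters of genes from both ends of this ranking are shown because the genes moved in opposite directions at the same step. Each is 300 bases of the reference (RefSeq table, GRCm38.p6), from 250 before to 50 after the annotated start, read 5′ to 3′ on the strand of the gene. Capitals mark letters that matched 1 of 4 motifs searched on both strands: GCGCA, then N (any base), then GCGC of NRF1, CCGGAAG of the ETS family, AAGATGGC of YY1 and GGGCGG of Sp1, none of which matched in the windows of Mrps10 and Mrps25. NRF1, the ETS factor GABP and YY1 are known regulators of nuclear genes for mitochondrial proteins. The windows of Mrpl52 (chr14:54426659-54426958, plus strand) and Mrps10 (chr17:47368947-47369246, plus strand) belong to the 2 largest rises. Those of Mrpl12 (chr11:120484387-120484686, plus strand) and Mrpl36 (chr13:73330759-73331058, plus strand) belong to genes described below. Those of Mrpl48 (chr7:100608252-100608551, minus strand, the first of its 4 windows) and Mrps25 (chr6:92183974-92184273, minus strand) belong to the 2 falls.
Mrpl52: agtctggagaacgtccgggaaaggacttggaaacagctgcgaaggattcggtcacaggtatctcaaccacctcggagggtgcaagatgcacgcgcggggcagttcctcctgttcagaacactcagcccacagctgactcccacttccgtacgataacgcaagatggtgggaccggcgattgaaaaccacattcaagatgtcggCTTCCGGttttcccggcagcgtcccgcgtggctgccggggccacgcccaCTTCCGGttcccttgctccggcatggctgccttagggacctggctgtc
Mrps10: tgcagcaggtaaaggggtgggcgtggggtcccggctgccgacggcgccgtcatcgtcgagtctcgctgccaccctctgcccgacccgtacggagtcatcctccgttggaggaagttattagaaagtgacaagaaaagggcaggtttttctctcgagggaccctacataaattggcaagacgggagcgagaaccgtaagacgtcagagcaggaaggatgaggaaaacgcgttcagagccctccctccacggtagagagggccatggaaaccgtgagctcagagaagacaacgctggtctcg
Mrpl12: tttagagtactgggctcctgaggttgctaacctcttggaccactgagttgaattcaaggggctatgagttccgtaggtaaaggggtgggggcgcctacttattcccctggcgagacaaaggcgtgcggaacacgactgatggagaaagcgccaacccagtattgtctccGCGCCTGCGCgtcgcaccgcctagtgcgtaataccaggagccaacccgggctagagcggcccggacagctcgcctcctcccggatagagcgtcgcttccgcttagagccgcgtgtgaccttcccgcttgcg
Mrpl36: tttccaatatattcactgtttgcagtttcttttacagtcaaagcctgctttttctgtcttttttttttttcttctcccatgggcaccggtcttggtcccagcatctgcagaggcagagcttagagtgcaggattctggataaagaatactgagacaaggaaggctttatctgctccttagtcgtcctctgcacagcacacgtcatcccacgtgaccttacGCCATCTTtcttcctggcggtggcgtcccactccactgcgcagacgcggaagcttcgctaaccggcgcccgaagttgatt
Mrpl48: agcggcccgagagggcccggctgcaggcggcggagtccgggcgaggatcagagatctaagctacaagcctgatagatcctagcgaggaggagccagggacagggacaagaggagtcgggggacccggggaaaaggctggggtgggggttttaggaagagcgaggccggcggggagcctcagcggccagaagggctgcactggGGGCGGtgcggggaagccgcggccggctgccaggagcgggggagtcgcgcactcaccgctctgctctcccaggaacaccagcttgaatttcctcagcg
Mrps25: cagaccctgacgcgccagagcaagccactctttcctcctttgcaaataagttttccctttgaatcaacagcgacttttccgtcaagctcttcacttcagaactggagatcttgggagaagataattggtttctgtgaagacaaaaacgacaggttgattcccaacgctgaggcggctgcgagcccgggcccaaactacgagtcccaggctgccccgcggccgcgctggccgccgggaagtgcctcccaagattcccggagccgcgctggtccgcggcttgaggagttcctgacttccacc

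The table of promoters held 74 windows for 68 of the 77 genes. An ETS match was present in 33.8% of these windows, against 17.9% of the windows of all genes in the expression table and 8.86% of all promoters. NRF1 letters were found in 17.6%, against 10.1% and 4.6%. YY1 letters were found in 16.2%, against 4.51% and 2.75%, and Sp1 letters in 52.7%, against 60.7% and 35.7%. Among windows of genes that rose, 33.3% held ETS letters, and among windows of the others 35%. YY1 letters were in 11 of 54 windows of genes that rose and in 1 of 20 windows of the others, a difference that was not tested. These are matches of letters and not measured binding sites.

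Members of the small subunit with bacterial counterparts rose in 12 of 16 cases at this step with control sires and none fell. Their median change was 2.69. Of all genes, 34.4% rose and 36.9% fell at this step. Mrps7, a protein of the head of the small subunit, rose from a median of 65.65 to 271.3 TPM. Mrps2, Mrps14, Mrps9 and Mrps21 did not pass. Small-subunit proteins found in mitochondria alone rose in 7 of 10 cases, with 1 fall and a median of 2.17. Mrps33 was among the 3 highest genes at the 2-cell stage (176.3 TPM in the median with control sires) and its change of -0.46 stayed inside the fold limit.

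Large-subunit members with bacterial counterparts rose in 23 of 30 cases with no fall and a median of 2.42. Large-subunit members without counterparts rose in 17 of 20 cases, with Mrpl48 the only fall and a median of 1.91. These counts stand beside 34.4% rises and 36.9% falls among all genes. Among 6 genes at the rim of the exit tunnel, where the new protein leaves the ribosome, 5 rose. Mrpl22 was the largest of these, from a median of 19.56 to 674.7 TPM with control sires, and it was the highest of all 77 genes at the 4-cell stage. Mrpl24 was the exception, with medians of 80.04 and 47.9 TPM and a change of -0.69 that stayed inside the fold limit. Of 6 genes of the central protuberance, a landmark at the top of the large subunit, 3 rose (Mrpl27, Mrpl46 and Mrpl38) and Mrpl48 fell. Mrpl18 and Mrpl40 were already among the 4 highest genes at the 2-cell stage. Mrpl18, a counterpart of bacterial L18, had medians of 250.8 TPM at 2 cells and 225.8 TPM at 4 cells.

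The stalk of the large subunit recruits translation factors and is built from Mrpl10, Mrpl11 and Mrpl12. Mrpl12, the counterpart of bacterial L7/L12, had a lowest, median and highest value of 0, 32.08 and 260.6 TPM in control 2-cell embryos and of 184.2, 411.7 and 728.4 TPM at the 4-cell stage. Its change was 3.63 ± 0.213 (SE, limma adjusted p = 1.25e-34). Mrpl11, which binds the ribosomal RNA at the stalk base, was among the lowest genes throughout, with medians of 1.34 and 12.66 TPM and a change of 2.46 ± 0.165 (SE, limma adjusted p = 1.08e-29). Mrpl10, the scaffold on which L7/L12 sits, had medians of 95.57 and 99.19 TPM at these stages and a change of -0.02 ± 0.188 (SE, limma adjusted p = 0.925). An exon of Mrpl10 and one of Mrpl12 overlap another gene in the annotation.

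The 3 Mrps18 paralogs descend from 1 bacterial protein, S18, and occupy different places in the mammalian ribosome, with the product of Mrps18a sitting in the large subunit despite its symbol. All 3 rose. Mrps18c, whose protein holds the place of bacterial S18, changed by 5.48 ± 0.297 (SE), Mrps18a by 3.93 ± 0.241 (SE) and Mrps18b by 3.39 ± 0.152 (SE), with limma adjusted p of at most 6.62e-33. Their order of level at the 4-cell stage was Mrps18b, Mrps18c and Mrps18a, with medians of 636.1, 206.9 and 150.1 TPM in control embryos. The middle and the lowest of these overlapped, at 107.7 to 772.6 TPM and 57.01 to 259.1 TPM. TPM is scaled by transcript length, but the quantifier and its strand setting are not given in the sources used here. An exon of Mrps18b overlaps Gm16279 in the annotation. The order is therefore one of listed levels.

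A further pair of S symbols stand for proteins outside the small subunit. The product of Mrps30 is a large-subunit protein in mammals, and the gene rose by 1.13 ± 0.244 (SE, limma adjusted p = 1.2e-05), from a median of 61.72 to 142.9 TPM. With each plate left out in turn its value went as low as 0.943, under the fold limit. The product of Mrps36 belongs to the 2-oxoglutarate dehydrogenase complex of the citric acid cycle. Mrps36 had medians of 30.5 and 27.59 TPM and a change of -0.15 ± 0.203 (SE, limma adjusted p = 0.472).

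The 16 genes that passed neither limit fell into 3 kinds. Mrpl40, Mrps21, Mrpl13, Mrpl32, Mrps23, Mrpl1 and Mrps9 had an adjusted p under 0.05 with a rise below the fold limit, and Mrps33 and Mrpl24 with a fall above it. The other 7, Mrpl18, Mrpl53, Mrpl10, Mrpl3, Mrps14, Mrps36 and Mrps2, had an adjusted p of 0.05 or more. At the 2-cell stage the mean levels of the 16 genes had a median of 75.65 TPM, against 19.47 TPM for the 59 that rose. At the 4-cell stage the medians were 70.41 and 94.46 TPM. The calls were made from these same control embryos, so the difference in 2-cell level is in part built into the groups. By adjusted p alone 66 genes rose and 4 fell, against 43.2% and 44.1% of all genes. With low-protein sires the counts were 64 and 6, against 42.7% and 44.7%.

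**Figure D3:**
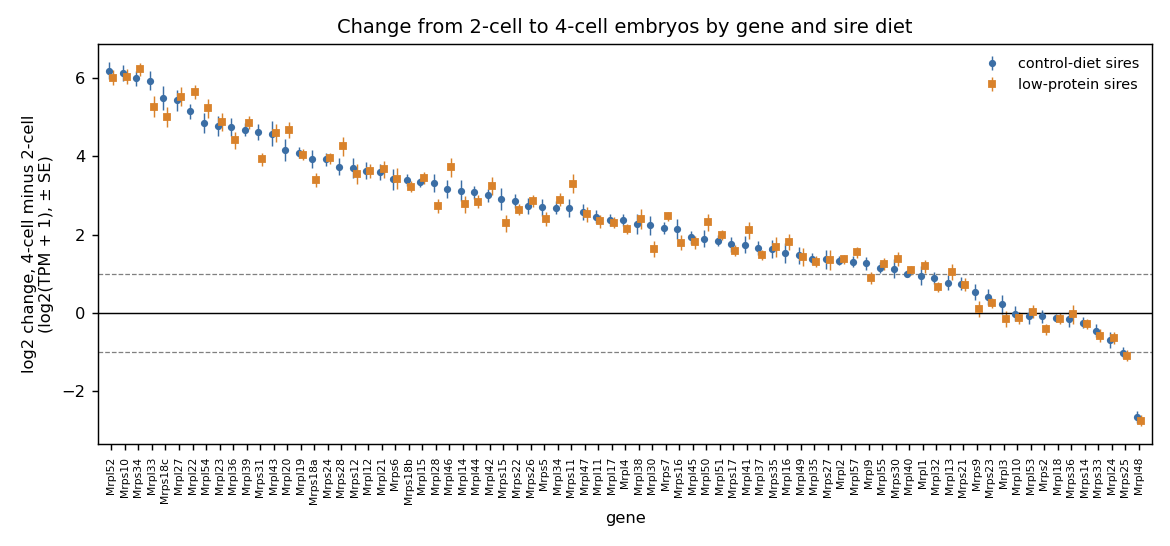
Fitted log2 change of each of the 77 genes from the 2-cell to the 4-cell stage with its SE, ordered by the value with control sires; circles are control and squares low-protein sires, and dashed lines mark changes of 1 and -1. The values run from 6.18 for Mrpl52 to -2.66 for Mrpl48 with control sires, and the low-protein values follow the same course.

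Levels were most unequal at the 2-cell stage. The upper quartile of the 77 mean levels was 5.68 times the lower quartile there, 2.63 times at the 4-cell stage, 2.46 times in morulae and 2.03 times in blastocysts. At the 2-cell stage 10 genes had a mean under 5 TPM, and at the later stages none did. The 3 highest at the 2-cell stage were Mrpl48 (mean 459.9 TPM over both diets, n = 80), Mrpl18 (309.7 TPM) and Mrps33 (235.3 TPM). The 3 lowest were Mrpl19 (0.454 TPM), Mrpl52 (0.812 TPM) and Mrps34 (1.71 TPM). Mrpl22 (666.7 TPM), Mrps18b (579.7 TPM) and Mrpl12 (422.2 TPM) led the 4-cell stage, n = 82. Mrps18b and Mrpl22 also led the morulae (846.2 and 753.7 TPM, n = 73), followed by Mrps18c, and Mrps18b, Mrpl12 and Mrpl42 led the blastocysts (572.9, 342.5 and 307.1 TPM, n = 36). Mrps25 was the lowest at the 4-cell, morula and blastocyst stages. Next to it were Mrpl11 and Mrpl17 at the 4-cell stage, Mrpl19 and Mrpl38 in morulae, and Mrpl41 and Mrpl19 in blastocysts.

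The mean level of Mrpl genes per gene was 1.28 times that of Mrps genes at the 2-cell stage and 0.991 times at the 4-cell stage with control sires. With low-protein sires the ratios were 1.29 and 1.03. The Mrpl mean includes Mrpl48, which went from a mean of 459.9 to 66.14 TPM over both diets. Its part in the ratios was not tested. The Mrps symbols include Mrps18a, Mrps30 and Mrps36, whose products lie outside the small subunit, so these are ratios of symbols and not of subunits. The stage of the highest mean was then taken from means of log2(TPM + 1), which can differ from means of TPM. Over the 4 main stages 33 genes had this highest mean in morulae and 22 at the 4-cell stage with control sires. For 19 it was in blastocysts and for 3 at the 2-cell stage (Mrpl48, Mrps25 and Mrps33). In 63 of 77 genes the stage of the highest mean on this log2 scale was the same with low-protein sires. These means pool plates that differ between stages, and morulae of plates 4, 6 and 7 lay higher in summed level than those of plates 1, 2 and 3; the part of plate in this split was not tested.

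**Figure D4:**
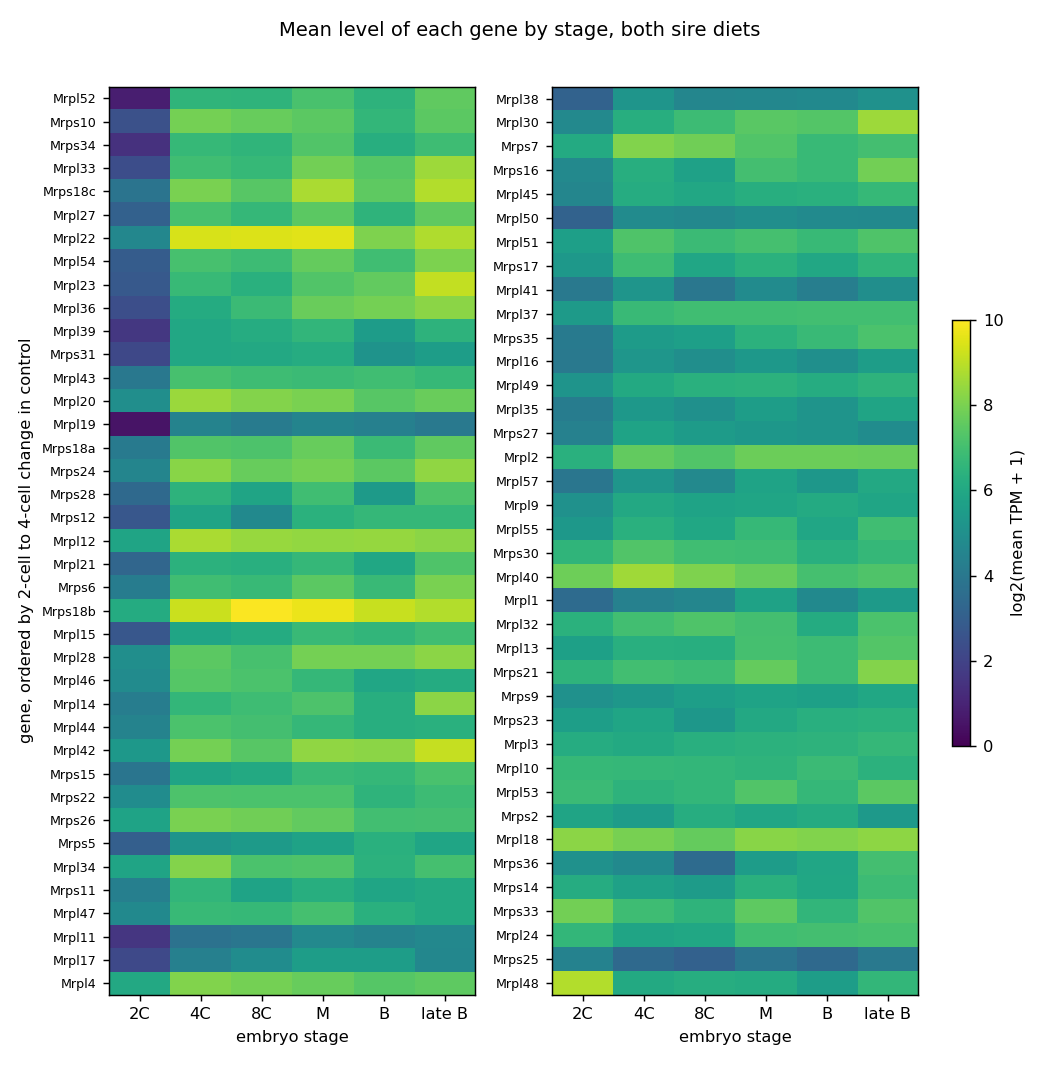
Mean level of each of the 77 genes over both sire diets at 6 stages, as log2(mean TPM + 1), with genes ordered by their 2-cell to 4-cell change with control sires. The left block and the top of the right block turn from dark at the 2-cell stage to brighter from the 4-cell stage on, while Mrpl48 at the bottom does the reverse, from 459.9 TPM at the 2-cell stage.

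From the 4-cell stage to the morula few of the genes moved beyond the limits. With control sires 5 rose and 3 fell, against 9.93% and 26.4% of all genes, and the median change was 0.09 over the 77 genes and -0.33 over all genes. With low-protein sires 5 rose and 2 fell (11.5% and 23.7% of all genes), with medians of 0.18 and -0.25. By adjusted p alone 17 rose and 19 fell with control sires (19.6% and 45.4% of all genes), and 22 rose and 12 fell with low-protein sires (22.3% and 42.1%). Quantile normalization moved the median of all genes to -0.02 with control sires, and then 9 of the 77 rose and none fell by the same limma limits. With low-protein sires 14 rose and none fell under it. The median change of the 77 genes was negative within plates 1 and 2 (-0.25 to -0.13) and positive within plates 3, 4, 6 and 7 (0.05 to 0.80). Without plate 1 the calls numbered 13 rises and no fall with low-protein sires, and 9 rises and 3 falls with control sires.

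Mrpl36, the counterpart of the smallest bacterial large-subunit protein, rose most. Its lowest, median and highest values were 18.32, 61.15 and 175.9 TPM in control 4-cell embryos and 94.49, 204.9 and 399.5 TPM in morulae. The change was 1.56 ± 0.24 (SE, limma adjusted p = 7e-09), and 1.46 with low-protein sires. The groups overlapped between 94.49 and 175.9 TPM. Blastocysts held this level, with medians of 222.5 and 250.3 TPM. An exon of Mrpl36 overlaps Ndufs6, a respiratory chain gene.

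The other rises with control sires were in Mrpl24 (1.31), Mrpl1 (1.26), Mrpl17 (1.22) and Mrps35 (1.01), all with limma adjusted p of at most 0.000162. Mrpl17 and Mrpl24 lie at the exit rim, and Mrpl1 is the counterpart of a bacterial protein that stands opposite the stalk. Mrpl17 and Mrps35 were also called with low-protein sires, together with Mrpl30 and Mrpl15. Mrps35, at the fold limit, was not called without the plate term (0.889). Mrpl24 reached a median of 111.1 TPM in control morulae after 47.9 TPM at the 4-cell stage, and so passed its 2-cell median of 80.04 TPM.

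The 3 falls with control sires were in Mrpl34 (-1.23 ± 0.185, SE), Mrps7 (-1.07 ± 0.159, SE) and Mrpl40 (-1.07 ± 0.1, SE), with limma adjusted p of at most 2.88e-09. Mrpl34, a counterpart of a very basic bacterial protein, went from a median of 265.1 to 110.9 TPM. Mrpl40 went from 365.6 to 179.7 TPM. None of the 3 was called under quantile normalization, where the values were -0.99, -0.80 and -0.89.

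Morulae differed by plate in some of these genes. Mrps18c had medians of 177 to 192.7 TPM on plates 1, 2 and 3, and of 361.7 to 616.6 TPM on plates 4, 6 and 7, where single embryos reached 2554 TPM. The summed level of the 77 genes had medians of 8412 to 9894 TPM on the former plates and of 11570 to 15230 TPM on the latter. Mrps18b did not follow, with medians of 606.5 to 1015 TPM on the 6 plates. What the plates differ in is not given in the sources used here, and the part of plate in the stage changes beyond the plate term was not tested.

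From the morula to the blastocyst 7 of the 77 genes fell and none rose with control sires, against 16.9% and 7.42% of all genes. An unadjusted limma p under 0.05 in either direction was found for 22 of the 77 genes, and for 4680 of all 11054. The median change was -0.32, and -0.24 over all genes. With low-protein sires 11 fell and none rose (19.1% and 5% of all genes), with medians of -0.35 and -0.33, and an unadjusted limma p under 0.05 was found for 33 of the 77 and for 5404 of all 11062. By adjusted p alone 15 fell and none rose with control sires (24.1% and 9.93% of all genes), and 24 fell and 2 rose with low-protein sires (34.2% and 8.59%). Mrpl34, Mrps10, Mrpl46, Mrps30 and Mrps28 fell in both, which is 71.4% of the control calls and 45.5% of the low-protein calls. Control blastocysts lay on plates 2 and 3 only, and without plate 2 the calls fell to 1. Under quantile normalization 2 genes rose and 1 fell with control sires, and 1 rose and none fell with low-protein sires.

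Mrpl34 had the largest fall at this step too. In control morulae its lowest, median and highest values were 51.21, 110.9 and 513.8 TPM, and in blastocysts 30.43, 60.2 and 148.2 TPM. The change was -1.63 ± 0.289 (SE, limma adjusted p = 1.69e-06), and -1.14 with low-protein sires, and the ranges overlapped. Mrps10 changed by -1.21 ± 0.336 (SE, limma adjusted p = 0.00243), from a median of 162.6 to 95.4 TPM, and stayed far above its 2-cell median of 2.84 TPM. Mrps30 changed by -1.18, Mrps28 by -1.09, Mrpl46 by -1.05, Mrpl54 by -1.03 and Mrpl57 by -1.02, with limma adjusted p of at most 0.0489. Mrps28 is a small-subunit protein with a bacterial counterpart, while Mrpl46, Mrpl54 and Mrpl57 are large-subunit proteins of mitochondria. Mrps10, Mrps30, Mrps28, Mrpl46 and Mrpl54 were each lost under 2 or more of the alternatives, Mrpl54 with an adjusted p of up to 0.915, and Mrpl34 with 1 plate left out (adjusted p = 0.0686). Mrps34, at -0.999, lay just outside the fold limit.

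Mrpl22 changed by -0.99 with control sires, just outside the limit, and by -1.26 with low-protein sires, where it was called. Its control blastocysts, at 163.1 to 368.1 TPM, nevertheless all lay below the control morulae, at 383.3 to 2641 TPM. No other of the 77 genes had such a gap, which 0.172% of all genes showed in this direction. Mrps35 and Mrpl36 had their highest control medians of the 4 main stages in blastocysts (115.8 and 222.5 TPM), with changes of 0.86 and 0.38 that did not pass.

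The 5 low-protein blastocysts of plate 6, whose trophectoderm markers were in the range of morulae, also stood apart in Mrps18b. Its level was 94.31 to 321.3 TPM in these embryos, against 459.1 to 1029 TPM in the 25 blastocysts of plate 2 and 516 to 739.9 TPM in the 6 of plate 3. The 15 morulae of plate 6 were at 352.7 to 1027 TPM, so in this gene the 5 embryos also lay below those morulae. Without plate 6, 12 of the 77 genes fell and 2 rose from morula to blastocyst with low-protein sires.

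Other parts of the mitochondrial translation system were followed in the same fits. Of 6 subunits with other kinds of symbol 5 rose from the 2-cell to the 4-cell stage with control sires, among them Ict1 (4.19) and Chchd1 (3.57). Dap3, a GTP-binding protein of the small subunit, fell by 1.36 on the log2 scale (limma adjusted p = 1.73e-18) and then rose again by 1.10 to the morula. Of 10 translation factors 2 rose, Tufm (6.39 ± 0.205, SE) and Mtrf1l (1.87), and none fell, with a median of 0.52. Among all genes 34.4% rose and 36.9% fell at this step, with a median of -0.01. Tufm, the elongation factor that brings aminoacyl-tRNA to the ribosome, went from a median of 1.32 to 257.7 TPM. Of 20 assembly factors 13 rose and 2 fell. The falls were in Nsun4 (-5.44 ± 0.155, SE, limma adjusted p = 1.07e-67), which methylates the small ribosomal RNA, and in Tfb1m (-1.42), which also methylates that RNA. Nsun4 had a median of 490.3 TPM in control 2-cell embryos, the highest 4-cell embryo was at 28.82 TPM, and the groups did not overlap.

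Cytosolic ribosomal proteins and nuclear-encoded respiratory subunits gave the frame for these levels. At the first step 78 of the 80 genes for cytosolic ribosomal proteins rose, by a median of 3.89, and 61 of 81 respiratory genes rose and 3 fell with a median of 1.97, next to 59 of 77 and 2.37 for the mitochondrial ribosomal genes (control sires). With low-protein sires 79 cytosolic ribosomal genes rose, by a median of 4.01, and 62 respiratory genes rose and 4 fell with a median of 2.06. Of all genes, 34.4% rose and 36.9% fell at the first step with control sires, and 34.5% and 37.6% with low-protein sires. From morula to blastocyst the respiratory genes had 22 rises, 3 falls and a median of 0.54, while 9 cytosolic ribosomal genes fell and none rose with a median of -0.52 (control sires). With low-protein sires 18 respiratory genes rose and 3 fell with a median of 0.68, and 3 cytosolic ribosomal genes fell and none rose with a median of -0.34. An unadjusted limma p under 0.05 was found for 42 of the 80 cytosolic genes with control and 35 with low-protein sires. Over all genes it was found for 4680 of 11054 and for 5404 of 11062. Of all genes, 7.42% rose and 16.9% fell from morula to blastocyst with control sires, and 5% and 19.1% with low-protein sires. The summed level of the 77 genes per summed level of the respiratory genes was 0.451 at the 2-cell stage, 0.579 at the 4-cell stage, 0.343 in morulae and 0.181 in blastocysts with control sires. With low-protein sires it was 0.458, 0.564, 0.366 and 0.177. The difference between lists was described by counts and medians alone, and no test of it was made.

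The 8-cell and late blastocyst embryos were described by their values and not tested. The 4 embryos of the 8-cell stage had summed levels of 9101 and 10850 TPM with control sires and of 8487 and 8054 TPM with low-protein sires, within the ranges of the 4-cell embryos and the morulae. Mrps18b was the highest gene there, at 903.4 to 1049 TPM. The 5 late blastocysts had summed levels of 16420 and 12360 TPM with control sires and of 11720, 10340 and 10620 TPM with low-protein sires. The blastocysts ran from 6854 to 11710 TPM, so that both late control embryos and 1 of the low-protein ones lay above all of them. The late blastocysts share no plate with the blastocysts, so stage and plate cannot be told apart. Mrpl42, Mrpl23 and Mrps18b led them, with means of 557.9, 537.9 and 456.6 TPM.

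Embryos of low-protein and control sires were then compared within each stage. No member passed an adjusted p of 0.05 at any of the 4 main stages (limma within stage, plate as covariate), and 0% of all genes did. At an unadjusted limma p under 0.05 there were 5 of 75 members at the 2-cell stage, 4 at the 4-cell stage, 6 in morulae and 1 in blastocysts. The shares of all genes at that level were 6.95%, 5.2%, 10.4% and 3.43%. The median difference, low-protein minus control, was 0.01, -0.04, 0.12 and 0.01 over the members, and 0.02, -0.04, 0.12 and 0.01 over all genes. In the test of whether the diet difference itself changes over the 4 main stages jointly, no member passed (limma F test), and 0.127% of all genes did. At an unadjusted p under 0.05 there were 7 of the 77, against 9.25% of all genes.

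The members with the smallest p at the 2-cell stage were Mrps11, Mrpl41 and Mrpl22. Mrps11, a small-subunit protein with a bacterial counterpart, had a lowest, median and highest value of 0, 13.74 and 137.8 TPM with control sires and of 0, 7.63 and 81.83 TPM with low-protein sires. The ranges covered each other, and the difference was -0.79 ± 0.308 (SE, limma adjusted p = 0.706). Mrpl41 and Mrpl22 differed by -0.60 ± 0.277 and -0.62 ± 0.288 (SE, limma adjusted p = 0.706 for both). At the 4-cell stage Mrps9 (-0.48 ± 0.213, SE), Mrps36 (-0.43 ± 0.208, SE) and Mrpl1 (0.36 ± 0.175, SE) came first, with limma adjusted p of 0.901, 0.941 and 0.941.

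In morulae the stalk genes Mrpl12 and Mrpl10 came first, followed by Mrps7. Mrpl12 had a lowest, median and highest value of 52.86, 288.4 and 547.7 TPM with control and of 202.5, 333.1 and 645.1 TPM with low-protein sires. The difference was 0.32 ± 0.117 (SE, limma adjusted p = 0.331), with ranges that overlapped over most of their length. Mrpl10 differed by 0.62 ± 0.242 (SE, limma adjusted p = 0.388), and Mrps7 by 0.33 ± 0.145 (SE, limma adjusted p = 0.437). In blastocysts Mrps21 (-0.39 ± 0.172, SE), Mrps34 (0.33 ± 0.167, SE) and Mrpl46 (0.32 ± 0.168, SE) had limma adjusted p of 1. With the mean per sire as unit, in a fit that had no plate term, the direction turned for Mrps21 (0.192) and Mrpl46 (-0.107). A p that misses the threshold does not show that the diets gave equal levels.

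**Figure D5:**
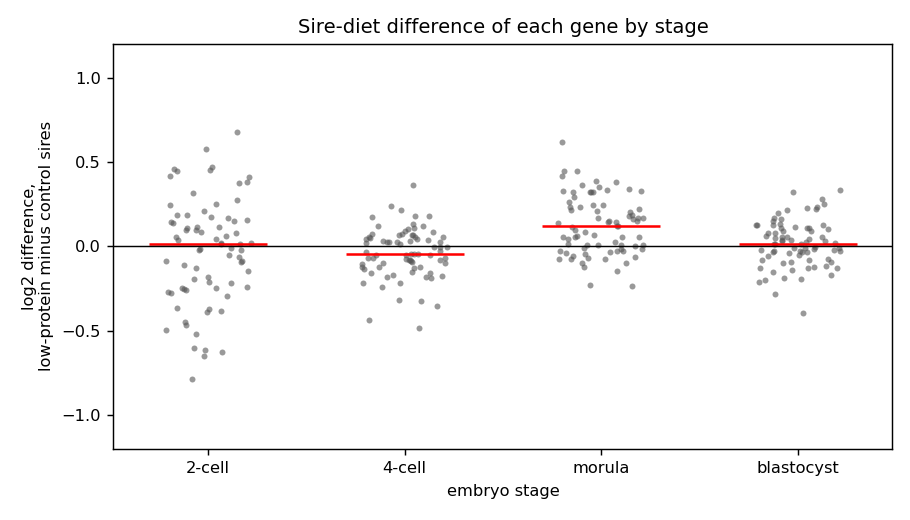
Fitted difference between sire diets (low-protein minus control, log2(TPM + 1)) of each member at 4 stages; each point is 1 gene and the red bar is the median. The medians lie at 0.01, -0.04, 0.12 and 0.01, no member passed the adjusted threshold, and the spread is widest at the 2-cell stage.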

How the data were processed

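The authors deposited TPM values per gene and embryo, which were used unchanged. The submitters' processing notes name Bowtie and the mm10 genome, and the quantifier and versions are not given in the sources used here. TPM sums per embryo ran from 985115 to 998407. Genes were kept where 25% or more of a stage's embryos had at least 1 TPM, and log2(TPM + 1) was fitted with limma 3.58.1 in R 4.3.3 (trend and robust variances, plate as covariate, Benjamini-Hochberg adjustment over all genes kept, threshold 0.05). Stage steps were fitted apart for each sire diet, with a log2 change of 1 or more, and diet was fitted apart for each stage. Descriptions used Python 3.11.15. Positions are from GENCODE on GRCm38, and 30 of the 77 genes share exon bases with another gene.

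The genes, lists and motifs were chosen with earlier results of these data known. Named genes are the 3 highest and 3 lowest per main stage, the 6 largest called rises and falls per step with control sires, the 3 smallest p per diet comparison, the Mrps18 paralogs, the stalk genes, Mrps30 and Mrps36, and genes at a limit or outside a group's direction named after their values were seen. The fits were tested on simulated data. For the morula to blastocyst step with control sires, 19.4% of true log2 changes of 1 and 89.4% of changes of 2 were recovered by adjusted p (11042 genes). For the 2-cell to 4-cell step these were 85.1% and 100% (11041 genes). The fold limit of the stage calls was not applied here, so these shares do not give the recovery of calls that need it. For diet, true changes of 0.5 were recovered in 25.4% of cases at the 2-cell stage, 20.9% at the 4-cell stage, 3.08% in morulae and 13.8% in blastocysts. For changes of 1 the shares were 75.4%, 85.1%, 83.6% and 67.7%. In each simulation the real differences were removed and few genes were changed. For the 2-cell to 4-cell step with control sires these were 67, 67 and 65 genes for the 3 sizes of change. In the real fit of that step 9691 of 11054 genes had an unadjusted limma p under 0.05. The adjusted p depends on that share, so the simulated shares do not give the recovery in these data, for stage or for diet.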

Additional observations from a re-analysis of the deposited data

How the results depend on the processing

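The counts for the 2-cell to 4-cell step and the absence of diet calls kept within 1.5 times under every alternative run. In these the low-value filter or the plate term was dropped, or a pseudocount of 0.1 or quantile normalization was used. In others Rn45s, the 1 embryo under 5000 genes at 1 TPM, or each plate in turn was left out. Sire was also fitted as a correlated block, and, for diet, means per sire were used. The later steps moved more. For morula to blastocyst with control sires, 7 calls became 4 with a pseudocount of 0.1, 3 with quantile normalization, 1 without plate 2, 4 without plate 4, 4 without plate 6, and 11 without the 16 embryos with suffixed sire identifiers, an alternative added after seeing the data. With low-protein sires, 11 calls became 1 with quantile normalization and 4 with no plate term. For 4-cell to morula with low-protein sires, 7 calls became 14 with quantile normalization and 13 without plate 1. The cause was not tested. The fit of means per sire had no plate term, so it differs from the reported fit in both unit and covariate. In it the diet difference in blastocysts was 0.192 for Mrps21 and -0.107 for Mrpl46, each of opposite sign to the reported value. Neither was called in either form. Of the values for named genes, 324 kept their direction and their side of the threshold, and 37 lost their call, most of them at the morula to blastocyst step or at the fold limit. The mean log2 level of the members went from 6.207 to 6.372 in 8-cell embryos and from 6.754 to 6.902 in late blastocysts with each embryo left out in turn. No paired analysis was possible because the replicate numbers only name embryos. Plate entered the reported fits as a covariate, but not the fit of means per sire. Sire entered, as an alternative, as a correlated block. The oocyte donor entered no fit. Depth is unknown, so a value listed at 0 cannot be told from a level too low to detect.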
